A study of Rattus norvegicus with 12 samples.

Results

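The effect of 17 beta-estradiol (E2) on bone was read from a comparison of 3 arrays of estradiol-treated rats with 3 arrays of rats on the casein diet alone (CAS), 6 of the 12 arrays of the study. All animals were female Sprague-Dawley rats sampled on postnatal day 34. CAS rats ate a diet with casein as the protein source and received no hormone. E2 rats ate the same casein diet and received 10 µg/kg/d of estradiol. The labels call these rats E2-fed, whereas the methods place the hormone in an osmotic mini pump under the skin. Treatment lasted 14 days by the methods, from postnatal day 20, while the labels give postnatal day 21 to 34. The other 6 arrays came from rats fed soy protein isolate (SPI) without and with the same dose of estradiol (SPI+E2), and were used here for the shared estimate of spread and for the effect of E2 on that second diet.

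RNA was taken from the right tibia after the marrow had been aspirated, and each Affymetrix rat genome array carried a pool of equal amounts of RNA from 2 to 3 rats, with at least 8 rats per group. Estradiol and CAS pools were thus different animals, but p-values rest on how pools varied, which is not the variation among single rats, and the small number of arrays limits the precision. Values are log2 differences from each probe set's median over the 12 arrays and carry no absolute level. Whether a gene was expressed at all, and whether the defining markers of bone were present, could therefore not be read. In a whole piece of bone, fewer cells of a type and less RNA per cell also cannot be told apart.

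Estradiol acts through nuclear receptors, chiefly the estrogen receptors encoded by Esr1 and Esr2, which bind DNA at estrogen response elements or act through other DNA-bound factors. In growing bone it is known for restraining resorption by osteoclasts, for maturing the growth plate and for acting on the growth hormone and insulin-like growth factor axis. The tibia of a young rat also holds blood-forming marrow, vessels, fat and sensory nerve fibres that run in the periosteum and the bone.

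A gene of chromosome Y set the CAS arrays apart and is given before the other results. Eif2s3y, the copy of a translation initiation factor gene that lies on chromosome Y, read -1.82, -1.89 and -2.20 in the CAS arrays and 0.01, 0.02 and 0.19 in the E2 arrays, a rise of 2.04 on the log2 scale (SE 0.15, limma adjusted p = 3.39e-06). The SPI arrays (0.26, 0.33 and 0.86) and the SPI+E2 arrays (-0.37, -0.28 and -0.01) also lay above all 3 CAS arrays. Xist, the RNA of the inactive X chromosome, was lower in E2 by 0.29, with 4 of 4 probe sets lower. It read 0.18 to 0.28 in CAS and -0.06 to -0.02 in E2. The SPI arrays (-0.07 to -0.02) and SPI+E2 arrays (-0.03 to 0.03) also lay below all 3 CAS arrays. Sry and Uty, further genes of chromosome Y, differed by -0.13 and -0.08 and did not pass the test. The labels call every pool female, and what part the source of the CAS pools has in the results below was not tested.

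Across 31042 probe sets, 1548 were higher with E2 (4.99%) and 1354 lower (4.36%) at a Benjamini-Hochberg adjusted p under 0.05 in limma. By fold alone, 510 probe sets (1.64%) differed by at least 1.5-fold, 344 of them higher and 166 lower. Averaged to 14217 genes, 992 genes were higher (6.98%) and 1028 lower (7.23%). These shares over all genes are the background for the list counts on the casein diet below. Most changes were small. The median size among the called genes was 0.30 on the log2 scale, and 12 genes rose and 8 fell by at least 2-fold. The E2 and CAS arrays did not overlap for 34.5% of all genes, and for 2014 of the 2020 called genes. The median change of all genes was -0.01.

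Igfbp2, which encodes a binding protein that holds insulin-like growth factors in the circulation and in tissue, had the largest rise of any gene outside chromosome Y. It read -1.40, -1.40 and -1.31 in CAS and 0.48, 0.50 and 0.62 in E2. The groups did not overlap, and the difference was 1.90 (SE 0.05, adjusted p = 6.16e-09), or 3.74-fold. Scg2, which encodes secretogranin II of neuronal secretory vesicles, rose from values between -0.83 and -0.74 to values between 0.41 and 0.49. Tyrp1, an enzyme of melanin synthesis, rose by 1.17 (adjusted p = 1.82e-07) with no overlap of the arrays. Of 9 melanocyte genes measured, Tyrp1 was the 1 higher, 1 was lower and 7 did not pass, with a median change of -0.003. Sostdc1, a secreted inhibitor of BMP and Wnt signaling, read -0.44, -0.54 and -0.48 in CAS and 0.59, 0.54 and 0.65 in E2, a rise of 1.08 (SE 0.05, adjusted p = 1.56e-07).

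Nerve genes filled much of the rest of the top. Scn9a and Scn11a, sodium channels of pain-sensing neurons, rose by 1.11 and 0.93. Prx, Pmp22, Pmp2 and Mal, genes of peripheral myelin, rose by 1.05, 0.99, 0.998 and 0.95. Synpr, a synaptic vesicle protein gene, rose by 1.05, Npy1r, a receptor of neuropeptide Y, by 1.04 and Grik1, a glutamate receptor subunit gene, by 0.96. Cpne4 (1.18), Elovl2 (1.06), which encodes an elongase of long fatty acids, Igsf11 (0.97), Pcp4 (0.95), Nrsn1 (0.93) and the uncharacterised locus LOC100910319 (1.07) completed, with Eif2s3y, the 20 largest rises. All 3 E2 arrays lay above all 3 CAS arrays in each of the 20, because only genes without overlap were ranked.

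Falls were led by genes of central glia, platelets, cartilage and red cells and by Ucp1 of brown fat. The 14 brown adipocyte genes had a median change of -0.0003, and 12 did not pass. Mobp, a gene of oligodendrocyte myelin, read 0.12, 0.14 and 0.20 in CAS and -1.60, -1.51 and -1.71 in E2, a fall of 1.76 (SE 0.08, adjusted p = 1.32e-07). The platelet chemokine gene Ppbp read 1.06, 0.91 and 1.01 in CAS and -0.54, -0.36 and -0.32 in E2. Its fall was 1.40 (SE 0.06, adjusted p = 1.14e-07). Ucp1, the uncoupling protein by which brown fat makes heat, fell by 1.31 (SE 0.05, adjusted p = 4.71e-08), from values between 0.81 and 0.89 to values between -0.54 and -0.40. Col10a1, the collagen of hypertrophic cartilage, fell by 1.10 (SE 0.05, adjusted p = 1.46e-07), from 1.19, 1.11 and 1.18 to 0.04, 0.03 and 0.12.

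Gfap of astrocytes and Mog of oligodendrocytes fell by 1.13 and 1.05, Aqp3, a water and glycerol channel, by 1.03, and Tubb1, the tubulin of platelets, by 1.08. Red cell genes made up Hemgn (-0.997), Car1 (-0.98), Slc4a1 (-0.94), Rhd (-0.93), Ahsp (-0.88) and Rhag (-0.84). The remaining genes of the 20 largest falls were Tnfrsf14 (-0.97), Pf4 (-0.93), Dyrk3 (-0.91), Slc16a10 (-0.89), Plek (-0.84) and Serpinb2 (-0.84). The E2 arrays lay below the CAS arrays in all 20, which was again a condition of the ranking.

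**Figure D1:**
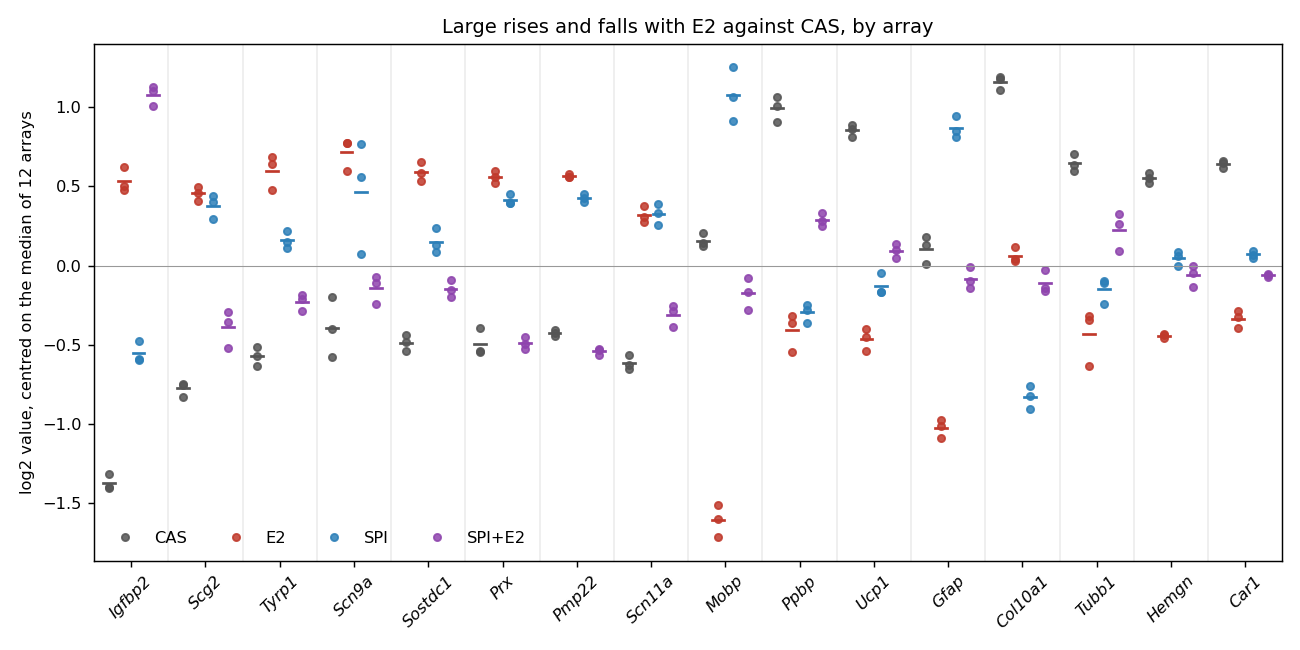
Centred log2 value (vertical axis) of 16 genes among the largest rises and falls, with 1 point per array, 3 arrays per group and a bar at each group mean. For Igfbp2 the E2 arrays (0.48 to 0.62) lie far above the CAS arrays (-1.40 to -1.31), and for Mobp they lie below all other arrays (-1.71 to -1.51).

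Sequences of the bases before the gene start are shown for genes on which these results turn, Igfbp2 as the largest rise and Mki67, Cdk1, Cdc20 and Alas2 as examples of the cell division and heme genes described further on. Cdk1 and Cdc20 were chosen for display after their values were seen. The sequences are the 250 bases before each gene's RefSeq start in assembly GRCr8, written 5′ to 3′ on the strand of the gene. Capitals mark, on either strand, the letters CCAAT (the box bound by NF-Y) or TTTGAA (the cell cycle homology region, CHR) in Mki67, Cdk1 and Cdc20, and AGATAA (bound by GATA factors) in Alas2. In Mki67 a CHR and a CCAAT box read on the opposite strand overlap. In Igfbp2 the letters searched, GGTCANNNTGACC for the full estrogen response element and AGGTCA for its single-receptor unit, are not in this window, so nothing is in capitals.
Igfbp2 (chr9:81864561-81864810, plus strand): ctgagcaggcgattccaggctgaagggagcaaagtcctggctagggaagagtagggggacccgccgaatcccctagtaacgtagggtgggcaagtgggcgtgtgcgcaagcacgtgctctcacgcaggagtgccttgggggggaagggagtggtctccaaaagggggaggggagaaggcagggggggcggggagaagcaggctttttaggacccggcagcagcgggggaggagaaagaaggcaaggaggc
Mki67 (chr1:199952594-199952843, minus strand): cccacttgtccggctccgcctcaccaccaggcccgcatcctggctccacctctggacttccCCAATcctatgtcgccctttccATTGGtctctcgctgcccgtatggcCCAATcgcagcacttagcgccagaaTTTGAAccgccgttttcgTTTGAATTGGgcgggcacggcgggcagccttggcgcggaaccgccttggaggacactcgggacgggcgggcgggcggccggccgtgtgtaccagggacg
Cdk1 (chr20:19265043-19265292, plus strand): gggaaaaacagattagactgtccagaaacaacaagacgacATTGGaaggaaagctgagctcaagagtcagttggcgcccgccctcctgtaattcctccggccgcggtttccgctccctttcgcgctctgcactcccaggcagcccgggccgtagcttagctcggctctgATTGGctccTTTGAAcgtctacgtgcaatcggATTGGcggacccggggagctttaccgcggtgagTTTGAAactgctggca
Cdc20 (chr5:137255800-137256049, minus strand): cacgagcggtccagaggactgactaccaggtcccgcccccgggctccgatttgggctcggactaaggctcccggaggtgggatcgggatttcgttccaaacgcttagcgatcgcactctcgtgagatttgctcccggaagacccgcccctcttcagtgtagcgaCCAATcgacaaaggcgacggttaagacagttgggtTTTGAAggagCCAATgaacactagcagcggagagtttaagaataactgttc
Alas2 (chrX:22895200-22895449, plus strand): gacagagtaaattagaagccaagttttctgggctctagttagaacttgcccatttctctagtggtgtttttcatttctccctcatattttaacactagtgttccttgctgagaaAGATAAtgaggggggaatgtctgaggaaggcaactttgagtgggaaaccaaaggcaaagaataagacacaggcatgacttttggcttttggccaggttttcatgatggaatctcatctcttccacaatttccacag

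The full element GGTCANNNTGACC was found on either strand in 6 of 27457 RefSeq promoter windows of this length (0.0219%) and in 0 of the 786 windows of genes that rose and 0 of the 860 windows of genes that fell. AGGTCA was found in 11.3% of the 11733 windows of measured genes, in 10.8% of those of genes that rose and in 9.88% of those of genes that fell. These are counts of letters in a short window and say nothing of sites farther away. Greb1, an estrogen-induced gene used as a marker in breast cells, has no entry in the promoter table.

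The estrogen receptor genes themselves did not pass the test. Esr1 read -0.13, -0.01 and -0.16 in CAS and 0.02, -0.04 and 0.06 in E2, a difference of 0.11 (SE 0.06, adjusted p = 0.308). Esr2 differed by -0.08 (SE 0.08, adjusted p = 0.619), and the progesterone receptor gene Pgr, a classic target in the uterus, by 0.05 (SE 0.08, adjusted p = 0.793). Of 16 steroid and nuclear hormone receptor genes measured, 1 passed the test, the orphan receptor Esrrg, higher by 0.20 (SE 0.05, adjusted p = 0.0228). That call was lost without CAS replicate 1 or 2 or E2 replicate 3 (adjusted p up to 0.0961). It was also lost with the most variable probe set alone, and neither of the 2 Esrrg probe sets passed.

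Among 27 genes listed as estrogen-responsive in other tissues, 4 were higher, 5 lower and 18 did not pass, with a median change of 0.01 against -0.01 over all genes. Greb1 read -0.54, -0.30 and -0.41 in CAS and 0.28, 0.26 and 0.17 in E2 and rose by 0.65 (SE 0.08, adjusted p = 0.000122). This is the mean of 2 probe sets that differed, 1 higher by 1.24 and past the test and 1 higher by 0.06 and not past it. Tgfa, a growth factor of the EGF family, Cyp26b1, which degrades retinoic acid, and the small heat shock protein gene Hspb8 rose by 0.22, 0.18 and 0.16. The 5 lower genes were Myb (-0.51), a transcription factor of blood progenitors, Rasd1 (-0.25), Gata3 (-0.23), the chemokine gene Cxcl12 (-0.20) and the complement gene C3 (-0.18). Cxcl12 and Myb are also expressed in marrow. Several lists of blood cell genes fell too, as described below, and whether these falls are linked was not tested. Fos, Myc and Ccnd1, early targets in the uterus, differed by -0.04, -0.05 and 0.00 and did not pass. The calls of Tgfa, Cyp26b1, Hspb8 and C3 were each lost when any of several arrays was left out (adjusted p up to 0.150, 0.129, 0.0648 and 0.186). Those of Tgfa, Hspb8, Cxcl12 and C3 were lost with the most variable probe set of each gene alone. A fit of the CAS and E2 arrays alone also lost the calls of Tgfa, Cyp26b1 and C3. The C3 call was lost as well with pairing by pool number, with robust variances and in the more variable genes alone. Neither of the 2 Tgfa probe sets passed. Gata3 (-0.34 and -0.12) and Cyp26b1 (0.29 and 0.07) each had 1 of 2 probe sets past the test.

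Within the insulin-like growth factor axis, Igf1 and some binding protein genes fell while other binding protein genes rose. Of 21 genes measured, 2 were higher (Igfbp2 and Igfbp6), 3 lower (Igf1, Igfbp5 and Igfbp3) and 16 did not pass. Igf2 was among the 16, but its 4 probe sets disagreed, 2 higher and 2 lower. They lay between -0.16 and 0.36, and only the probe set at 0.36 passed. Igf1, the growth factor itself, read 0.38, 0.30 and 0.38 in CAS and -0.06, -0.01 and 0.02 in E2, a fall of 0.37 (SE 0.05, adjusted p = 0.000143). Igfbp5, abundant in bone matrix, fell by 0.27 (SE 0.04, adjusted p = 0.000836) and Igfbp3, the main carrier in serum, by 0.18 (SE 0.05, adjusted p = 0.0255, up to 0.113 without CAS replicate 1 or 3 or E2 replicate 2 or 3). All 5 Igfbp5 probe sets were lower, from -0.38 to -0.07, and 2 of them passed. Neither of the 2 Igfbp3 probe sets passed, and the Igfbp3 call was also lost with the most variable of them alone. Igfbp6 was at 0.00, 0.00 and 0.02 in CAS and 0.24, 0.24 and 0.23 in E2 (rise of 0.23, adjusted p = 0.00303). The receptor genes Igf1r and Igf2r (0.15 and 0.00) and the growth hormone receptor gene Ghr (0.17) did not pass.

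Osteoblast genes were nearly level. Of 13 measured, 0 were higher and 1 lower, with a median change of -0.0018, against 6.98% higher and 7.23% lower over all genes. The matrix genes Col1a1 and Bglap (osteocalcin) and the phosphatase gene Alpl differed by 0.01, -0.0018 and 0.01, and the E2 arrays of Alpl (-0.0224, -0.0037 and -0.0100) overlapped the CAS arrays (-0.0329, -0.0394 and -0.0045). Runx2, the master regulator of osteoblasts, has no probe set with its symbol alone and was not analysed here. Bmp2, a growth factor that drives osteoblast differentiation, was the gene that passed. It read 0.28, 0.09 and 0.29 in CAS and 0.01, -0.07 and 0.00 in E2, a fall of 0.24 (SE 0.07, adjusted p = 0.0258). The call was lost without any 1 of the CAS and E2 arrays other than CAS replicate 2 (adjusted p up to 0.107). It was also lost with the most variable probe set alone, and neither of the 2 Bmp2 probe sets (-0.26 and -0.23) passed. Of its signal transducers, Smad1, Smad5, Smad9 and Smad4 differed by 0.05, -0.06, 0.10 and -0.01 and none passed.

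In osteocytes, the cells buried in bone matrix, 1 of 12 genes was higher and 0 lower, against 6.98% and 7.23% over all genes. Sost, whose product sclerostin inhibits Wnt signaling and bone formation, read -0.04, -0.03 and -0.03 in CAS and 0.01, 0.09 and -0.03 in E2. The difference of 0.06 (SE 0.10) did not pass (adjusted p = 0.801). Reln, a secreted matrix protein gene that osteocytes share with lymphatic vessels and neurons, rose by 0.50 (SE 0.06, adjusted p = 0.00012). Phex and Dmp1, regulators of phosphate and mineral, differed by -0.15 and 0.11 and did not pass.

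Osteoclast genes had 0 higher, 3 lower and 9 not past of 12 measured, with a median change of -0.06. Over all genes 7.23% were lower. Car2, the carbonic anhydrase that supplies acid for resorption and is also abundant in red cells, read 0.41, 0.36 and 0.35 in CAS and -0.33, -0.35 and -0.33 in E2 (fall of 0.71, adjusted p = 1.81e-07). Itgb3, an integrin of osteoclasts and platelets, fell by 0.24 (adjusted p = 0.0035) and Acp5, the tartrate-resistant phosphatase, by 0.15 (SE 0.03, adjusted p = 0.0119, or 0.0559 without CAS replicate 3). The protease gene Ctsk, the calcitonin receptor gene Calcr and Mmp9 differed by -0.06, 0.04 and 0.02 and did not pass. Of the factors that govern osteoclasts, Tnfsf11 (RANKL) and its decoy receptor Tnfrsf11b differed by -0.04 and 0.09 without passing, while Il34 rose by 0.30 (adjusted p = 0.0487, up to 0.183 with 1 array left out) and Sema3b by 0.65. The Il34 call was also lost with arrays centred on their median, with robust variances and with the most variable probe set of each gene alone.

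Several collagen genes of cartilage were lower. Of 16 chondrocyte and cartilage matrix genes, 8 were lower and 1 higher, with a median change of -0.17. Col9a1 read 0.70, 0.64 and 0.59 in CAS and 0.13, 0.06 and 0.13 in E2 (fall of 0.54, adjusted p = 0.000253). Hapln1, which links hyaluronan to aggrecan, Sox6, a transcription factor of chondrocytes, and Comp fell by 0.43, 0.36 and 0.26, and Col9a2, Col9a3, Snorc and Col11a2 fell as well (by 0.43, 0.37, 0.39 and 0.17). The call of Snorc was lost without any CAS array or E2 replicate 1 or 2 (adjusted p up to 0.105) and that of Col11a2 without CAS replicate 1 or 3 or E2 replicate 2 (up to 0.0560). Col2a1, the main collagen of cartilage, was lower by 0.16 in the mean and Acan by 0.08, and neither passed as a gene. The 3 probe sets of Col2a1 lay between -0.42, which passed, and 0.19, which did not, and the gene was called with array weights and with its most variable probe set alone. Probe sets of Hapln1 also spread, from -0.77 to -0.09, with 2 of 3 past the test. Of the 2 Sox6 probe sets (-0.52 and -0.20), 1 passed. Cnmd, which encodes chondromodulin, an inhibitor of vessel growth, went the other way, from values between -0.29 and -0.21 to values between 0.39 and 0.55. Its rise was 0.72 (SE 0.06, adjusted p = 6.55e-06).

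Of 17 genes of the hypertrophic zone and of growth plate signals, Col10a1 and the channel gene Panx3 (-0.27) were lower and the natriuretic peptide receptor gene Npr2 (0.17) higher, the last with an adjusted p of up to 0.130 when 1 CAS or E2 array other than CAS replicate 2 was left out. The Npr2 call was also lost in a fit of the CAS and E2 arrays alone. Ihh, the hedgehog signal of prehypertrophic cells, Mmp13 and Fgfr3 differed by -0.10, 0.11 and 0.02 and did not pass. The median change of these 17 genes was 0.02. Fibrillar and other collagens outside cartilage were level, with 1 of 26 genes higher (Col5a3, 0.23) and 0 lower. Eln, which encodes elastin, rose by 0.54 (SE 0.05, adjusted p = 2.54e-05), from -0.46, -0.45 and -0.44 to 0.10, 0.08 and 0.07, and the stromal protease gene Mmp3 rose by 0.43 (adjusted p = 0.00799).

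Red cell genes fell nearly throughout. Of 22 measured, 0 were higher, 20 lower and 2 did not pass, with a median change of -0.62. Hemgn, a nuclear protein of erythroid precursors, read 0.59, 0.52 and 0.55 in CAS and -0.43, -0.46 and -0.44 in E2 (fall of 0.997, SE 0.04, adjusted p = 1.005e-07). Slc4a1, the band 3 anion exchanger of the red cell membrane, fell by 0.94, and Ahsp, the chaperone of alpha globin, by 0.88. The mean over the 22 genes lay between 0.32 and 0.35 in the CAS arrays and between -0.25 and -0.23 in the E2 arrays, while the SPI and SPI+E2 arrays fell between, at -0.03 to 0.03.

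Heme synthesis went with them. Of 17 genes of heme and iron handling, 12 were lower and 1 higher, with a median change of -0.38. Alas2, the enzyme that starts heme synthesis in red cell precursors, read 0.22, 0.18 and 0.23 in CAS and -0.49, -0.54 and -0.49 in E2 (fall of 0.72, adjusted p = 3.94e-07). Further enzymes along the pathway, Alad, Cpox and Fech, fell by 0.58, 0.71 and 0.54, and Tfr2, an iron sensor, fell by 0.58. The gene that rose was Alas1, the counterpart of Alas2 in other tissues, by 0.18 (adjusted p = 0.0139, up to 0.0617 without CAS replicate 2 or E2 replicate 3), named here after its value was seen because it was the exception.

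Platelet and megakaryocyte genes had 13 of 22 lower and 0 higher, with a median change of -0.47. Beside Ppbp and Tubb1, Pf4, platelet factor 4, read 0.49, 0.47 and 0.43 in CAS and -0.41, -0.51 and -0.47 in E2. The signaling genes Plek and Rgs18 fell by 0.84 and 0.78 and the surface glycoprotein gene Gp5 by 0.80. The list mean lay between 0.24 and 0.26 in CAS and between -0.24 and -0.20 in E2.

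B cell genes had 8 of 10 lower and 0 higher, with a median change of -0.49. Vpreb3, which acts in the assembly of the pre-B cell receptor, read 0.32, 0.19 and 0.17 in CAS and -0.37, -0.48 and -0.41 in E2 (fall of 0.65, adjusted p = 3.83e-06). Ms4a1 (CD20), the adaptor Blnk, the coactivator Pou2af1 and the receptor chain Cd79b fell by 0.64, 0.57, 0.56 and 0.51. Other blood lineages moved less. Blood progenitor genes had 6 of 14 lower, T and cytotoxic cell genes 4 of 18 lower and 1 higher, neutrophil genes 4 of 14 lower and macrophage genes 2 of 14 lower. The share over all genes was 7.23% lower. In the T cell list Cd3g, a chain of the T cell receptor complex, fell by 0.63, and the 1 gene that rose, Thy1 (0.29), is also a neuronal gene.

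**Figure D2:**
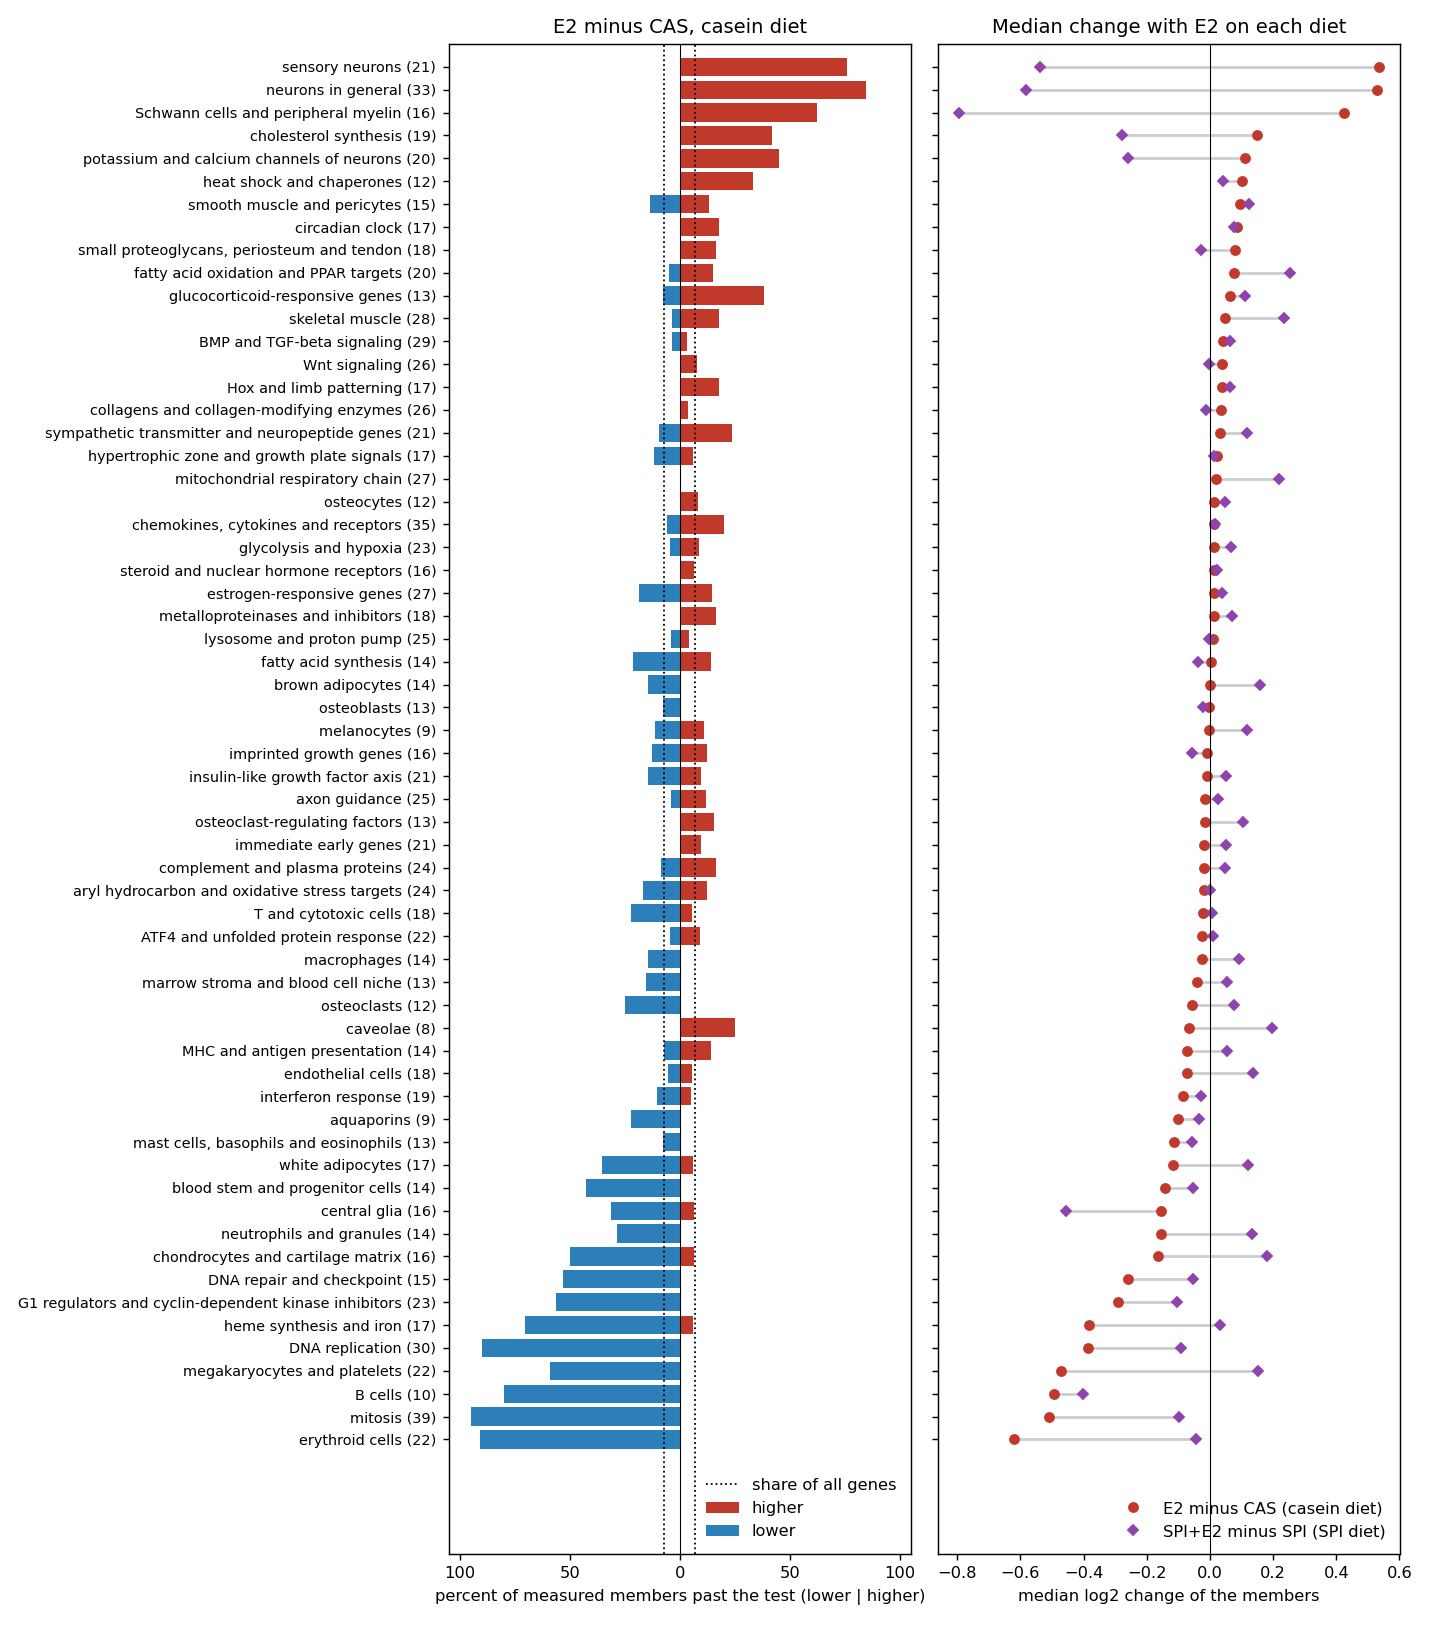
For each gene list other than the sex checks (measured members in brackets), the left panel gives the percent of members past the test, lower to the left and higher to the right of 0, with dotted lines at the shares of all genes (6.98% higher and 7.23% lower). The right panel gives the median log2 change with E2 on the casein diet (circles) and on the SPI diet (diamonds), where the lists of sensory neurons, neurons in general and Schwann cells lie on opposite sides of 0 and B cells lie low on both.

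Genes of dividing cells fell as a block. Of 39 genes of mitosis, 37 were lower, 0 higher and 2 did not pass, with a median change of -0.51, and of 30 genes of DNA replication 27 were lower and 0 higher (median -0.39). Mki67, which encodes the proliferation marker Ki-67, read 0.31, 0.30 and 0.23 in CAS and -0.33, -0.44 and -0.35 in E2 (fall of 0.65, SE 0.06, adjusted p = 1.89e-05). Ccna2, cyclin A2, fell by 0.70 and Plk1, a kinase of mitotic entry and exit, by 0.58. Cdt1, which loads the replicative helicase, and Mcm6, one of its subunits, fell by 0.69 and 0.59. All 39 mitosis genes and all 30 replication genes had E2 arrays wholly below the CAS arrays, as did 2639 of all 14217 genes.

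Of 23 G1 regulators, 13 were lower and 0 higher. Ccne1 (cyclin E1) read 0.34, 0.29 and 0.27 in CAS and -0.34, -0.49 and -0.48 in E2, and the repressor E2f8 and the pocket protein gene Rbl1 fell by 0.73 and 0.65. Ccnd1, the cyclin D of most mesenchymal cells, differed by 0.00, whereas Ccnd2 fell by 0.42. DNA repair genes had 8 of 15 lower and 0 higher. The list mean of the mitosis genes lay between 0.25 and 0.29 in CAS and between -0.25 and -0.20 in E2. Means of the red cell, platelet and B cell lists were also lower in E2 than in CAS. The lists parted in the SPI arrays, where mitosis means (-0.04 to 0.10) lay below CAS. B cell means there (0.26 to 0.31) lay above CAS (0.05 to 0.12). Which cells carried the dividing cell genes was not tested.

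Promoter letters of the cell division lists were counted in the same windows. CCAAT was present in 26 of 34 mitosis promoters (76.5%) and in 15 of 27 replication promoters (55.6%), against 35.1% of measured genes and 34.3% of all windows. The CHR letters TTTGAA stood in 17 of the 34 mitosis promoters, against 10.9% of measured genes and 16.0% of all windows. They stood in only 1 of 27 replication promoters (3.70%). In lists that rose, they stood in 5 of 16 sensory neuron promoters (31.2%) and 5 of 23 promoters of neurons in general (21.7%). TTCCCGC, the letters of an E2F site, stood in 6 of the 27 replication promoters (22.2%) against 6.07% of measured genes and 3.58% of all windows. In genes that fell with E2 taken as a whole, the 3 shares were 42.8%, 14.7% and 10.1%, and in genes that rose 32.1%, 8.14% and 4.71%. AGATAA stood in 3 of 16 red cell promoters (18.8%), the same count as in 16 sensory neuron promoters, against 6.62% of measured genes. These shares describe the sequences, and the lists were known to have fallen when the letters were chosen.

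**Figure D3:**
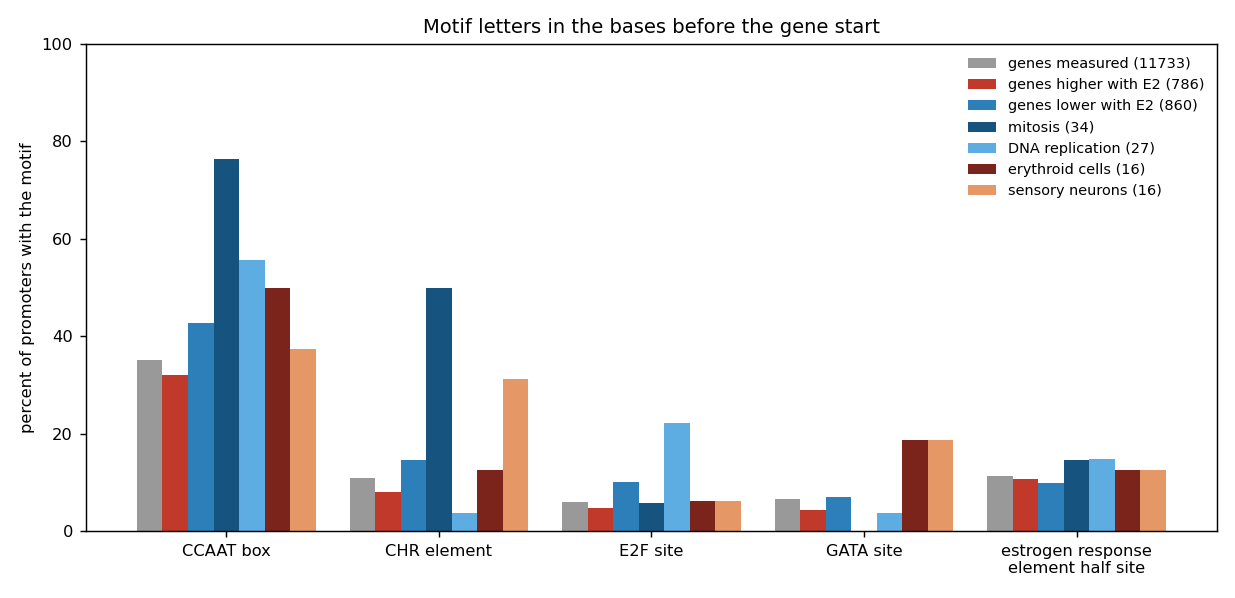
Percent of promoter windows (vertical axis, from 0) that hold each motif's letters on either strand, for measured genes, genes higher or lower with E2 and 4 gene lists, with the number of windows in brackets. The mitosis bars stand highest for the CCAAT box (76.5%) and the CHR element (17 of 34 windows), and the bars of the estrogen response unit AGGTCA are near level.

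Nerve genes rose. The sensory neuron list had 16 of 21 members higher and none lower, and the other 5 did not pass, with a median change of 0.53. Prph, the neurofilament protein peripherin, read -0.65, -0.69 and -0.70 in CAS and 0.23, 0.23 and 0.26 in E2 (rise of 0.92, SE 0.04, adjusted p = 4.71e-08). Avil, an actin-binding protein of sensory neurons, rose by 0.87, and Tac1, the precursor of substance P, by 0.77. Calcb and Calca, which encode forms of the calcitonin gene-related peptide, rose by 0.82 and 0.49. Of the 3 probe sets averaged for Calca, 2 were higher and passed the test and 1 was lower by 0.02 without passing.

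General neuronal genes had 28 of 33 higher and 0 lower (median 0.53). Stmn2, a microtubule regulator of growing axons, read -0.65, -0.65 and -0.59 in CAS and 0.23, 0.22 and 0.26 in E2, and Snap25, a protein of vesicle fusion, rose by 0.66 (SE 0.05, adjusted p = 2.53e-06). Neuronal ion channel genes, mostly of potassium and calcium channels, had 9 of 20 higher and 0 lower, led by Kcna1 (0.69). In the list of Schwann cells and their myelin, 10 of 16 members were higher and none lower (median 0.43). Ngfr, the low-affinity neurotrophin receptor, rose by 0.75, S100b by 0.69 and Scn7a by 0.90.

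Central glia went the other way from peripheral glia. Of 16 genes 5 were lower and 1 higher, with a median change of -0.16, and the mean over the list lay between 0.01 and 0.06 in CAS and between -0.31 and -0.24 in E2. Beside Mobp, Gfap and Mog, the oligodendrocyte gene Ermn fell by 0.58, while Ugt8, an enzyme of myelin lipid synthesis that Schwann cells also use, rose by 0.44 as the mean of probe sets at 0.84, past the test, and 0.04, not past it. Mobp and Mog are genes of the myelin of the brain and spinal cord, whereas Gfap is also expressed by non-myelinating Schwann cells, and the SPI arrays lay highest for Mobp and Gfap. Among transmitter and neuropeptide genes 5 of 21 were higher and 2 lower. Sst (somatostatin), Adcyap1 and Cartpt rose by 0.68, 0.58 and 0.50, and Npy and Gch1, which serves the synthesis of catecholamines, fell by 0.38 and 0.60. How much nerve tissue came with each dissected bone was not tested.

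**Figure D4:**
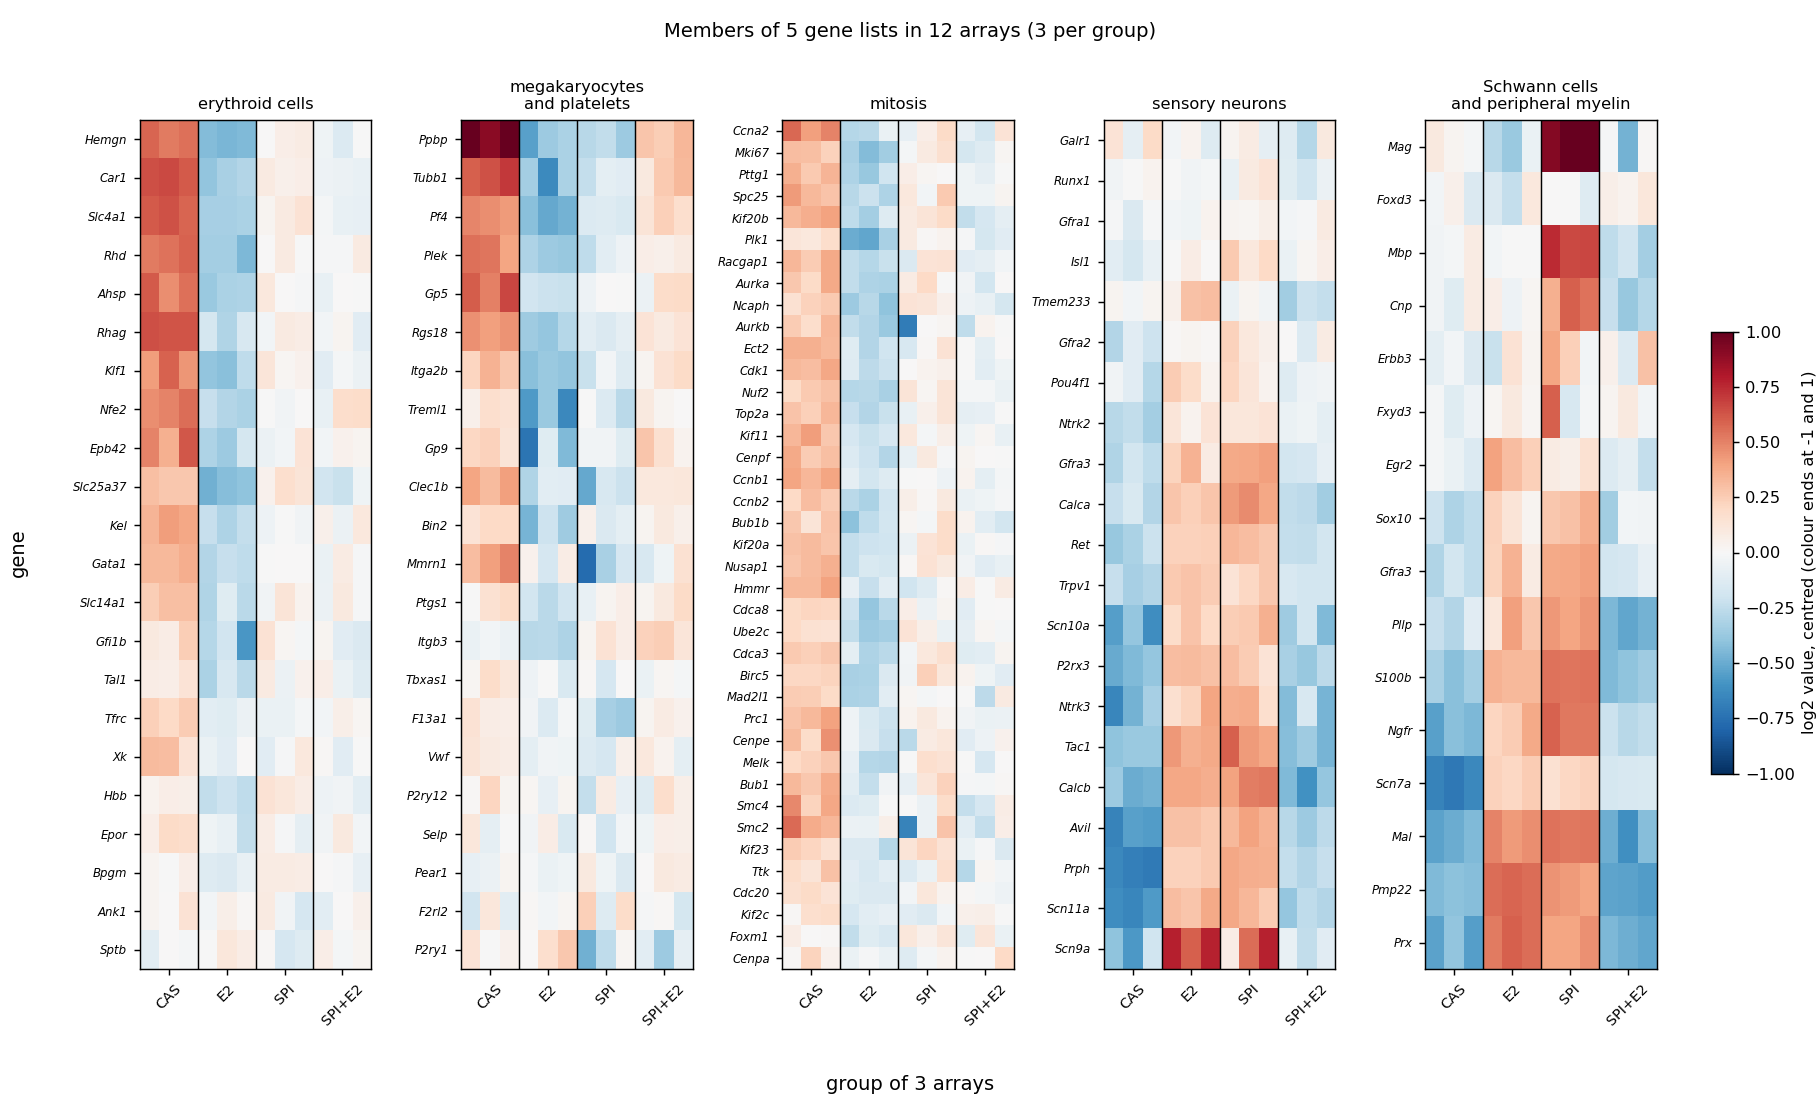
Centred log2 values (colour, red above and blue below the median of 12 arrays, ending at -1 and 1) of every measured member of 5 gene lists, with genes in rows and 3 arrays per group in columns. Red cell, platelet and mitosis genes are red in CAS and blue in E2, and sensory neuron and Schwann cell genes are blue in CAS and red in E2.

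Several smaller groups moved in part. Of 19 cholesterol synthesis genes, 8 were higher and 0 lower (median 0.15), with Msmo1 at 0.37 and Sqle at 0.30. The stress genes Atf3 and Chac1, the latter a target of ATF4 that degrades glutathione, rose by 0.75 (from -0.30, -0.14 and -0.38 to 0.39, 0.52 and 0.52, adjusted p = 1.3e-05) and 0.62 (from -0.36, -0.33 and -0.38 to 0.26, 0.24 and 0.29, adjusted p = 1.16e-06). They were the 2 genes higher of 22 of the ATF4 and unfolded protein response, where 1 was lower and the median change was -0.02. Of 21 immediate early genes, Atf3 and Egr2 (0.39) were higher and 0 lower. The 2 probe sets of Egr2 stood at 0.58 and 0.19, and 1 of them passed.

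Glutathione peroxidase Gpx2 rose by 0.91 and the quinone reductase Nqo1 by 0.40, while Gclm, of glutathione synthesis, fell by 0.39 (adjusted p = 0.0149, up to 0.0611 without CAS replicate 1 or 3 or E2 replicate 1 or 2), in a list of 24 with 3 higher and 4 lower. White adipocyte genes had 6 of 17 lower, among them Cidec (-0.50), of the lipid droplet, and 1 higher, Plin4 (0.32), also of the lipid droplet. Of 14 brown adipocyte genes Ucp1 and Cidea (-0.57) were lower, 12 did not pass and the median change was -0.0003. Mitochondrial respiratory chain genes had 0 of 27 higher and 0 lower. Skeletal muscle genes had 5 of 28 higher and 1 lower, with a median change of 0.05.

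Lists of immune signals, stress, metabolism and development were counted in the same way, against 6.98% higher and 7.23% lower over all genes. Chemokines, cytokines and receptors had 7 of 35 higher and 2 lower, among them Ccl2 (0.34) and Ccl3 (0.27), whose calls were lost when some single arrays were left out (adjusted p up to 0.0542 and 0.176). The Ccl3 call was also lost with robust variances and with the most variable probe set of each gene alone. Glucocorticoid-responsive genes had 5 of 13 higher and 1 lower, heat shock genes 4 of 12 higher and 0 lower, and circadian clock genes 3 of 17 higher and 0 lower. Complement and plasma protein genes had 4 of 24 higher and 2 lower, small proteoglycan, periosteum and tendon genes 3 of 18 higher, metalloproteinases and inhibitors 3 of 18 higher, and Hox and limb patterning genes 3 of 17 higher. Fatty acid synthesis had 2 of 14 higher and 3 lower, with Thrsp at -0.47 and Fasn at -0.36, and fatty acid oxidation 3 of 20 higher and 1 lower. BMP and TGF-beta signaling had 1 of 29 higher and 1 lower, and Wnt signaling 2 of 26 higher and 0 lower. Endothelial genes had 1 of 18 higher and 1 lower, smooth muscle genes 2 of 15 higher and 2 lower, caveolae genes 2 of 8 higher, and lysosome genes 1 of 25 higher and 1 lower.

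Single genes of note by the same rule included Sult1a1, a sulfotransferase of phenols and estrogens, which read -0.68, -0.43 and -0.53 in CAS and 0.27, 0.03 and 0.09 in E2 (rise of 0.68, adjusted p = 3.78e-05). Apod, a lipid carrier of nerve and stroma, rose by 0.60, Cfi, of the complement system, by 0.57, and the clock repressor Nr1d1 by 0.50. The limb patterning genes Hoxa9 and Hoxa10 rose by 0.47 and 0.46. Of the imprinted genes, Meg3 and Ndn rose by 0.59 and 0.52, and Dlk1 and Mest fell by 0.41 and 0.21 (for Mest adjusted p = 0.0509 without E2 replicate 1). Cxcr4, the receptor of Cxcl12 on blood cells, fell by 0.48 and Rsad2, an interferon-induced gene, by 0.51. Cav1, which encodes caveolin-1, read 0.14, 0.18 and 0.29 in CAS and 0.01, 0.08 and 0.11 in E2, and its difference of -0.14 (SE 0.05) did not pass (adjusted p = 0.137).

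Estradiol was also given on the SPI diet, and that comparison, SPI+E2 against SPI, shares no array with E2 against CAS. There 1297 genes were higher (9.12%) and 1137 lower (8.00%). The change with E2 differed between the diets for 2240 genes (15.8%) by the test of the difference itself. Of the 992 genes that rose on the casein diet, 304 had the same sign on the SPI diet, 186 passed in the same direction and 497 passed in the opposite direction, with a median change of -0.19 there. Of the 1028 genes that fell, 663 had the same sign, 179 passed in the same direction and 74 in the opposite one (median -0.05). Over all 14217 genes, which are not independent, the changes on the 2 diets had a correlation of -0.20.

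Igfbp2 rose on both diets, by 1.63 on the SPI diet (adjusted p = 2.59e-08) from values between -0.59 and -0.48 to values between 1.01 and 1.12. LOC100910319 (0.97), Greb1 (0.35) and Chac1 (0.64) rose on the SPI diet too, and for these 3 the difference between the diets did not pass (adjusted p = 0.764, 0.0858 and 0.847). Atf3 rose there by 0.37, less than on the casein diet (adjusted p of the difference 0.0178). B cell genes fell on both diets, with 8 of 10 lower on the SPI diet (median -0.40) and 0 of 10 different between them. Vpreb3, Ms4a1 and Blnk fell there by 0.43, 0.92 and 0.47. Cd3g fell by 0.54 and Ccnd2 by 0.43, and Mog and Gfap fell by 1.06 and 0.95.

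For genes of sensory neurons and Schwann cells the direction turned, while the list of sympathetic transmitters and neuropeptides had 9 of 21 higher and 4 lower with E2 on the SPI diet and central glia had 9 of 16 lower. Sensory neuron genes had 16 of 21 lower with E2 on the SPI diet (median -0.54), and 18 of 21 differed between the diets. Prph fell by 0.62, Scg2 by 0.77 and Gpm6a, a membrane glycoprotein gene of neurons, by 1.59 after rising by 0.89 on casein. The Schwann cell list had 13 of 16 lower (median -0.79). On this list the means were -0.25 to -0.24 in CAS, 0.17 to 0.20 in E2, 0.38 to 0.43 in SPI and -0.27 to -0.21 in SPI+E2, so that the arrays with estradiol lay above those without it on casein and below them on SPI.

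Red cell, platelet and cell division genes, unlike those of B cells, had fewer members lower on the SPI diet. Red cell genes had 4 of 22 lower (median -0.04) and 14 of 22 differed between the diets, mitosis genes 4 of 39 lower (median -0.10) with 30 differing, and DNA replication genes 9 of 30 lower (median -0.09) with 17 differing. Platelet genes had 8 of 22 higher, Ppbp by 0.58, and cartilage genes 7 of 16 higher, with Col10a1 up by 0.72 and Col9a1 by 0.53. Respiratory chain genes had 21 of 27 higher against 0 on casein, with 13 of 27 differing between the diets. Skeletal muscle genes moved with them, with 20 of 28 higher, 0 lower and 13 differing, and a list mean of -0.27 in every SPI array against 0.05 to 0.10 in SPI+E2. The part of muscle in the respiratory chain result was not tested.

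**Figure D5:**
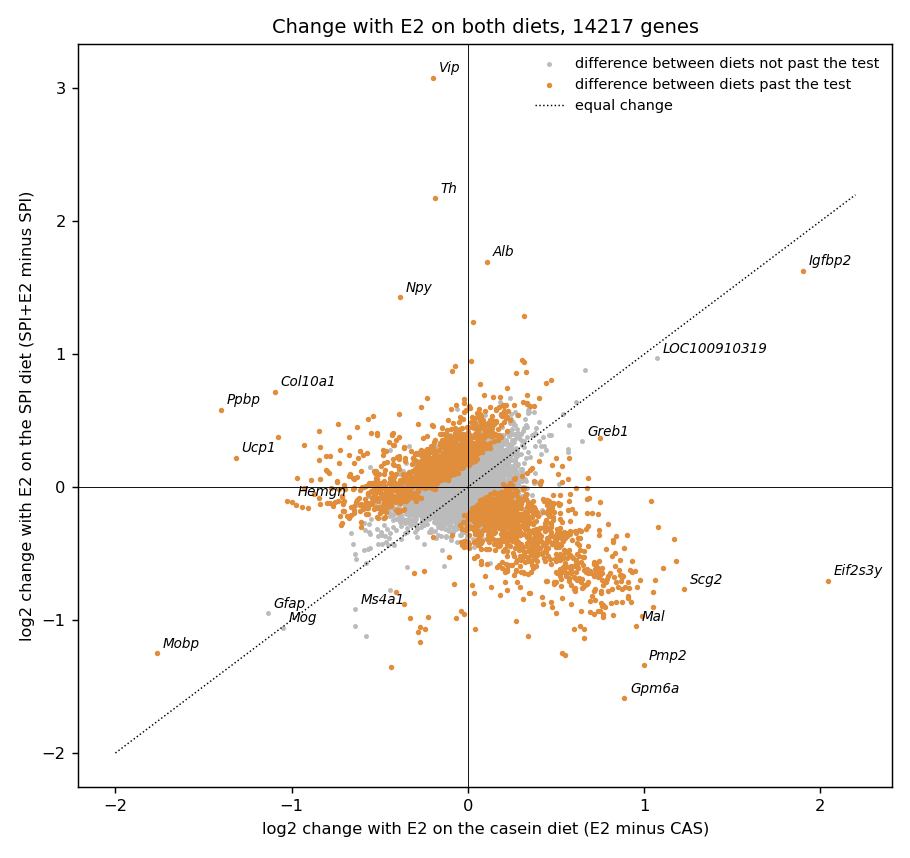
Log2 change with E2 on the casein diet (horizontal axis) and on the SPI diet (vertical axis) for 14217 genes, with 1 point per gene, orange where the difference between the diets passed the test (2240 genes) and a dotted line of equal change. Igfbp2, Mog and Gfap lie near the dotted line, and nerve genes such as Scg2, Pmp2 and Gpm6a lie to the lower right.

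Each of the 4 groups stood apart from all others for some genes, and since the called genes were chosen for a difference between CAS and E2, the shares of these groups among them are raised by that choice. Of the 992 genes higher with E2, 326 (32.9%) had all 3 CAS arrays below all 9 other arrays and 242 (24.4%) had all 3 E2 arrays above all 9 others. Of the 1028 lower genes, 433 (42.1%) had CAS above all other arrays and 534 (51.9%) had E2 below all others. Among all 14217 genes the CAS arrays lay below all others for 3.39% and above all others for 5.49%, the E2 arrays above for 3.88% and below for 5.78%, and the SPI arrays above for 5.06% and below for 8.12%. The SPI arrays also lay above all others for 209 (21.1%) of the 992 higher genes. Igfbp2 and Eif2s3y were of the first kind, with CAS lowest, as were Prph and Scg2. Hemgn, Mki67 and Vpreb3 had E2 lowest.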

How the data were processed

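Gene expression was measured on 12 Affymetrix rat genome arrays, 3 pools in each of 4 groups. The deposited values are log2 values that the authors made with RMA and then centred in GeneSpring per array and per gene. The labels name GCOS and RMA with no version, and the log base is not written in the file. Groups were taken from the sample titles. Of 31099 probe sets, 57 controls were left out. The file held 0 further sample columns. A gene's value was the mean over its probe sets with exactly 1 symbol (20826 probe sets, 14217 genes), and 436 probe sets with several symbols and 9780 with none were tested but not named. The model of limma 3.58.1 (R 4.3.3, statmod 1.5.0) was fitted to all 4 groups with Benjamini-Hochberg adjustment over all probe sets or all genes, and was tested on simulated data. No signal over background can be read from centred values.

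Named genes were the 20 largest rises and 20 largest falls with no overlap of arrays, genes the study names, up to 6 members of each of 63 lists, all members of the estrogen, growth factor, bone and cartilage lists, and the 10 largest differences between diets each way. The comparison, its lists and the promoter motifs were chosen with earlier results of these data known. Alternatives covered the arrays in the fit, pairing by pool number, normalization, variances, array weights, filtering, thresholds, probe set summaries and each array left out.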

Additional observations from a re-analysis of the deposited data

Results flagged for a closer look

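The change with E2 differed between the casein and SPI diets, by limma's test of the difference itself, for 2240 genes. Differences are given as the log2 change on the SPI diet minus that on the casein diet. The most negative were Eif2s3y (-2.75), Gpm6a (-2.48), Pmp2 (-2.34), Mal (-1.999), Scg2 (-1.995), Pmp22 (-1.96), Prx (-1.95), Synpr (-1.83), Rgs7bp (-1.82) and Snap25 (-1.80), mostly genes of neurons and peripheral myelin. The most positive were Vip (3.28), Th (2.36), Ppbp (1.98), Col10a1 (1.82), Npy (1.81), Alb (1.59), Ucp1 (1.54), Tubb1 (1.45), Serpinb2 (1.27) and Pf4 (1.245). Vip, Th and Npy belong to autonomic nerves, and Ppbp, Tubb1 and Pf4 to platelets.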

How the results depend on the processing

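Of 2902 probe sets called for E2 against CAS, 1668 remained at an adjusted p under 0.01, and 6315 had an unadjusted p under 0.05. The count of 510 probe sets that differed by at least 1.5-fold became 1265 with the values read as natural logarithms and 35 at 2-fold. The other counts stayed within 1.5 times their reported value. The 2020 called genes became 2405 after quantile normalization, 2006 after centring each array on its median, 2223 from the CAS and E2 arrays alone, 2779 with array weights, 1982 with robust variances and 1646 in the more variable genes alone. With 1 CAS or E2 array left out they ranged from 1525 to 1585, and with 1 SPI or SPI+E2 array left out, an alternative chosen after seeing the data, from 1916 to 2230. The difference between the diets ranged from 1767 to 2200 genes with 1 array left out. Among 184 genes named in the text, no change reversed its sign where the main or the alternative fit passed the test. Sign changes where neither fit passed were not counted. Of 149 called genes named in the text, 131 stayed called under all 21 alternatives, and of 35 uncalled genes 32 stayed uncalled.

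Pool numbers in the titles were tested as a replicate block, which gave 2769 probe sets and 1986 genes, 1862 of them among the 2020. Deviations of same-numbered CAS and E2 pools correlated at 0.01, 0.14 and 0.07, so the numbers were not taken as pairs.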
